A study of Mus musculus with 4 samples.

Results

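Transcripts of 6 genes that mark the inner supporting cells and the ridge of epithelium medial to them were followed in the sensory epithelium of the cochlea, the organ of Corti, after loss of the transcription factor gene Tbx2. The genes Slc1a3, Cdh2, Fabp7, Epyc, Crabp1 and Fst were picked by name, and all non-control probes that the array files assign to these names were used, irrespective of their values. These were 7 of the 39429 probes on the array, since Cdh2 had 2 probes and the other genes had 1 each. All 7 were bright enough in both genotypes to be tested.

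The RNA came from the basal part of organs of Corti of NMRI mouse embryos at E18.5 (E, embryonic day). Sox2-Tbx2LOF embryos had the genotype Sox2(creERT2);Tbx2(fl/fl), in which a tamoxifen-activated recombinase knocked into Sox2 removes the floxed part of Tbx2 in cells with active Sox2. Control embryos lacked the recombinase and are labelled Tbx2(fl/n.d.), so that the labels do not state their other Tbx2 allele, whereas the crosses in the methods of the study would make it floxed too. Dams received 4 mg of tamoxifen by mouth at E16.5, and by the same methods also progesterone. The crosses also brought a membrane reporter at the R26 locus into the embryos. On each array, pooled Sox2-Tbx2LOF organs were hybridised together with a control pool of the same sex in the other dye, with n = 4 pools per genotype. Arrays 1 and 2 held female and arrays 3 and 4 male pools, and the Sox2-Tbx2LOF pool was labelled with Cy3 on arrays 1 and 3 and with Cy5 on arrays 2 and 4. The recombinase acts in supporting cells and in other cells with Sox2, while these pools hold all cells of the dissected tissue.

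Inner hair cells are wrapped by inner phalangeal and border cells, which take up the glutamate that hair cells release at their synapses. Medial to them lies the greater epithelial ridge, also called Kölliker's organ, a transient epithelium that secretes much of the tectorial membrane and later thins into the inner sulcus. Both populations descend from or border on the Sox2-positive progenitor domain, and the genes described here serve in them as markers of an inner, or medial, position.

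The probes are oligonucleotides of 60 bases. The first 30 bases of 5 of them, read 5′ to 3′ from the array files, are shown. They are the start of the 60-base stretch in which each transcript was measured.
Slc1a3 A_51_P268697: gtttacccggtgtgatattttttatactaa
Fabp7 A_51_P290074: tgaagcactggtcactaattataagtttgt
Epyc A_51_P225484: atctcttcagaagcaaactcagtatatttg
Crabp1 A_52_P185907: gtttacccacgtgggagaatgagaacaaga
Fst A_55_P2394308: caccaatgttcagtgttgacatagcctttg
On the mouse genome build mm9 the Slc1a3 probe lies on the minus strand of chromosome 15 (8584236 to 8584295) and starts at base 4034 of NM_148938. The Fabp7 probe lies on the plus strand of chromosome 10 (57508039 to 57508098) and starts at base 544 of NM_021272. The Epyc probe lies on the same chromosome (97143965 to 97144024, plus strand) and starts at base 1153 of NM_007884. The Crabp1 probe lies on chromosome 9 (54616192 to 54616251, plus strand) and starts at base 404 of NM_013496. The Fst probe lies on chromosome 13 (115243565 to 115243624, minus strand), starts at base 1706 of NM_001301375, and is listed for 3 RefSeq transcripts of the gene. The array files do not state exons. The share of G and C was 35.0% in all of these probes but that of Crabp1, which had more.

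None of the 6 genes passed the test for a difference between Sox2-Tbx2LOF and control pools. The test was limma on the log2 ratio of Sox2-Tbx2LOF over control with a term for the dye and Benjamini-Hochberg adjustment over all 28079 tested probes, and the adjusted p was under 0.05 in 0 of 7 probes. Before adjustment, p was under 0.05 in 2 of 7, with a higher level of Epyc and a lower level of Crabp1 in Sox2-Tbx2LOF pools. SAM, the kind of test that the study used, called 0 of the 7 as well, at a cutoff set here on these values and not the one of the study. Over all tested probes, the adjusted p was under 0.05 in 0.987%, namely lower in 0.538% and higher in 0.449%. The unadjusted p was under 0.05 in 7.12%, lower in 3.54% and higher in 3.58%. With a minimum fold change of 1.5 in addition to the adjusted p, 0 of 7 probes and 0.249% of all tested probes were called, of which 0.128% were lower and 0.121% higher. The 95% intervals of all 7 ratios lay within 1.5-fold in either direction, the farthest bound being a fold of 1.30 for Epyc. Such intervals were the rule on these arrays, as 99.4% of the tested probes had one. Intervals here are those of limma. Their error joins a probe's own spread between arrays, after the dye term, with the spread typical of all tested probes. A probe with a wide spread of its own can thus get a narrower interval than its 4 arrays alone would give.

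**Figure D1:**
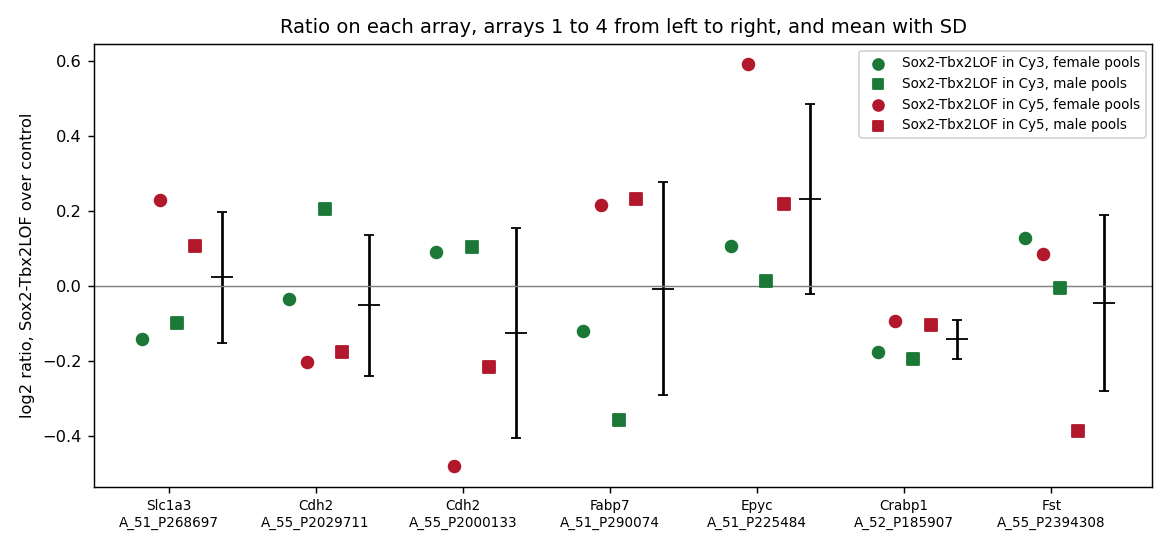
Log2 ratio of Sox2-Tbx2LOF over control (vertical axis) for the 7 probes (horizontal axis) on arrays 1 to 4, coloured by the dye of the Sox2-Tbx2LOF pool and shaped by sex, with the mean and SD (n = 4) as black bars. Epyc lies above 0 and Crabp1 below 0 on 4 of 4 arrays, while the other probes have both signs.

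Facts of the whole series that touch these values were as follows. Of the probe spots, 70.4% to 75.2% were well above background, no spot was saturated, and all 16 spots of each of the 7 probes were well above background in both genotypes. In raw signal, the spots of the 6 genes were between 26.5 and 2211 times as bright as their local background. The probe of Tbx2, the targeted gene, was on average at −0.15 ± 0.14 (SD, n = 4) in log2 ratio and lower on 4 of 4 arrays, but did not pass the test (limma adjusted p 0.313). Whether the probe lies in the deleted stretch was not analysed here. Of 7 markers of inner hair cells, a list that includes Tbx2, 5 were lower by adjusted p. The study names Slc17a8, Fgf8 and Cabp2 of these 5 as lowered on these arrays, and Tal1 of the outer supporting cell markers as raised. They are thus no independent evidence of a direction. The summed linear level of the 7 was 17064 to 21043 in Sox2-Tbx2LOF and 21186 to 25060 in control pools. Tbx2 and Otof were the brightest of the 7 and weigh most in this sum. All 5 general hair cell markers were detected. Of the markers of other cells, 1 of 6 outer hair cell markers and 2 of 8 outer supporting cell markers were higher by adjusted p and 1 of the latter was lower, whereas 0 of 6 neuron, 0 of 4 blood and 0 of 4 melanocyte markers passed the test by limma or SAM, with 1 melanocyte marker at an unadjusted p under 0.05. These markers, and those of glia and mesenchyme, were above background, although by the methods of the study the spiral ligament and the ganglia were taken off before the tissue was collected.

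Slc1a3 codes for GLAST, the glutamate transporter of glia and of the supporting cells around inner hair cells. Its normalized log2 level in Sox2-Tbx2LOF pools 1 to 4 was 14.66, 14.83, 14.64 and 14.80. In control pools 1 to 4 it was 14.80, 14.60, 14.73 and 14.69. The groups overlapped throughout, and in either genotype the pools labelled with Cy5 were the higher ones. The log2 ratios of Slc1a3 on arrays 1 to 4 were −0.14, 0.23, −0.10 and 0.11, with a mean of 0.02 ± 0.17 (SD, n = 4). The 95% interval of −0.09 to 0.14 reached a change of 1.10-fold upwards and 1.06-fold downwards (limma, SE 0.049, adjusted p 0.9996). Other genes of glutamate uptake and metabolism, among them the transporters of the same family and the glutamine synthetase gene Glul, showed nothing beyond that. All 10 were tested and 0 had an adjusted p under 0.05 by limma, nor did any have an unadjusted p under 0.05, and SAM called 0. Their median log2 ratio was −0.002, compared with 0.002 over all tested genes, and they ranged from −0.09 for Slc1a6 to 0.07 for Slc1a7.

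Cdh2 codes for N-cadherin, a calcium-dependent adhesion molecule that marks the inner compartment, whereas E-cadherin, encoded by Cdh1, marks the outer one. The Cdh2 probes lie close to each other on the minus strand of chromosome 18, A_55_P2029711 at 16747559 to 16747618 and A_55_P2000133 at 16747386 to 16747445, and start at bases 4413 and 4586 of NM_007664. At the brighter probe A_55_P2029711 the levels in Sox2-Tbx2LOF pools 1 to 4 were 14.84, 14.86, 15.03 and 14.80, and in control pools 14.87, 15.06, 14.83 and 14.97. These ranges overlapped, with the female control pool of array 2 highest and the male Sox2-Tbx2LOF pool of array 4 lowest. The log2 ratios were −0.03, −0.20, 0.21 and −0.18, with a mean of −0.05 ± 0.19 (SD, n = 4), a 95% interval of −0.18 to 0.07 and a limma adjusted p of 0.9996. A decrease by more than 1.13-fold lay outside the interval of this probe, while that of the other Cdh2 probe reached 1.19-fold. Probe A_55_P2000133 gave levels of 14.16, 13.97, 14.20 and 14.20 in Sox2-Tbx2LOF pools and of 14.07, 14.45, 14.09 and 14.42 in control pools. Its log2 ratios were 0.09, −0.48, 0.11 and −0.22, and the sign followed the dye on all 4 arrays. With the dye term, the mean for this second Cdh2 probe was −0.12 ± 0.28 (SD, n = 4), the 95% interval −0.25 to 0.004 and the limma adjusted p 0.734. The probes differed from each other by 0.07 ± 0.17 (SD, n = 4) in log2 ratio, less than their spread between arrays. By immunofluorescence in such embryos at E18.5, the study reports a strong decrease of CDH2 protein in the inner compartment. The ratios here are of RNA from whole pools and cannot decide on protein or on 1 compartment.

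Of 12 other cadherin and catenin genes, all of which were tested, 0 passed at an adjusted p under 0.05 by limma, SAM called 0, and 1, Cdh4, had an unadjusted p under 0.05. Cdh4, which codes for R-cadherin, had the highest mean log2 ratio of the list with 0.12 ± 0.29 (SD, n = 4). Ctnnd1, which codes for p120-catenin, had the lowest with −0.02. Ratios above 0 were found for 11 of the 12 genes and for 10942 of all 21217 tested genes, and the median of the 12 was 0.02.

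Fabp7 codes for a cytosolic fatty acid binding protein of radial glia and of inner phalangeal cells. Levels in Sox2-Tbx2LOF pools 1 to 4 were 16.25, 16.45, 16.14 and 16.46, and in control pools 16.37, 16.23, 16.49 and 16.23. Each genotype thus spanned nearly the same range, and the higher value of an array was the pool in Cy5 on 4 of 4 arrays. The log2 ratios were −0.12, 0.22, −0.36 and 0.23. Their mean of −0.01 ± 0.28 (SD, n = 4) had the widest SD of the 7 probes, but after the dye term the 95% interval was −0.13 to 0.12 (limma adjusted p 0.9996), that is, a fold of 0.914 to 1.08. The study lists Fabp7 among genes lowered in cochlear ducts of such mutants at an earlier stage, after earlier tamoxifen. The pools used here do not cover that stage. Only 2 of 9 other fatty acid binding protein genes were bright enough to be tested. Fabp5, the epidermal form, had a mean log2 ratio of −0.07, and Fabp3, the heart form, had −0.05. Neither had an unadjusted p under 0.05 in limma, nor was either called by SAM.

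Fabp7 and Slc1a3 are also genes of glia, so that markers of Schwann cells and satellite glia are given beside them. All 8 such markers were tested and 0 passed at an adjusted p under 0.05 by limma or in SAM. The summed level of the list was 130479 to 140823 in Sox2-Tbx2LOF pools and 129271 to 140176 in control pools. The ranges nearly coincided, and the part of glia in the Slc1a3 and Fabp7 signal was not tested. In pools of tissue, fewer cells of a type and less RNA per cell cannot be told apart.

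Epyc codes for epiphycan, a small leucine-rich proteoglycan of the extracellular matrix that is abundant in the greater epithelial ridge. It had the highest ratio of the 6 genes. The levels of Epyc in Sox2-Tbx2LOF pools 1 to 4 were 15.73, 15.94, 15.74 and 15.83. In control pools they were 15.63, 15.35, 15.73 and 15.61. All Sox2-Tbx2LOF pools lay above all control pools, although the lowest Sox2-Tbx2LOF pool and the highest control pool had almost the same level (15.734 and 15.729). Among all tested probes, 2.53% had levels without overlap, and 1.2% had them with the Sox2-Tbx2LOF pools higher. On arrays 1 to 4 the log2 ratios were 0.11, 0.59, 0.02 and 0.22. The ratio was higher on 4 of 4 arrays, as it was for 4.43% of all tested probes, and array 2 stood well above the others. The mean of 0.23 ± 0.25 (SD, n = 4) corresponds to 1.18-fold, with a 95% interval of 1.06 to 1.30 (limma, SE 0.066, unadjusted p 0.00667). After adjustment over all tested probes p was 0.241, so the difference was not significant. Without array 4, Epyc passed the test with a log2 ratio of 0.33 (limma adjusted p 0.0195), where 393 probes of the array passed, against 277 with all 4 arrays. Without array 2 it was 0.14.

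Related proteoglycans of cartilage and connective tissue were read beside Epyc. All 11 were tested and 0 had an adjusted p under 0.05 by limma, nor did SAM call any, whereas Dcn, Kera and Aspn had an unadjusted p under 0.05. Dcn, the gene of decorin, had the highest ratio of the list with log2 ratios of 0.16, 0.46, 0.20 and 0.10 on arrays 1 to 4 and a mean of 0.23 ± 0.16 (SD, n = 4, limma adjusted p 0.218). Chad, which codes for chondroadherin, had the lowest with −0.04. The median of the 11 genes was 0.03, and 8 were above 0. Of 7 mesenchyme markers, 0 passed the test by limma or SAM and 3 had an unadjusted p under 0.05. Their median log2 ratio was 0.07 and 6 of 7 were above 0. Col1a1, Col3a1 and Twist1 were higher on 4 of 4 arrays and Col1a2 on 3. Tbx18, Pdgfra and Pou3f4 lay on either side of 0 on 2 arrays each. Col3a1 was at 0.23 ± 0.14 (SD, n = 4, limma adjusted p 0.205). Col1a1 was highest with 0.34 ± 0.23 (SD, n = 4, limma adjusted p 0.0607). Their summed level was 201995 to 214368 in Sox2-Tbx2LOF and 171382 to 209645 in control pools, so the groups overlapped. The part of mesenchyme in the Epyc values was not tested.

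Crabp1 codes for a cytosolic protein that binds retinoic acid and limits its access to nuclear receptors. Its levels were 12.78, 13.02, 12.90 and 13.03 in Sox2-Tbx2LOF pools 1 to 4. In control pools they were 12.95, 13.11, 13.10 and 13.13. On every array the Sox2-Tbx2LOF pool was the lower one, although the groups overlapped across arrays because the pools of array 1 were low in both genotypes. The log2 ratios of −0.18, −0.09, −0.19 and −0.10 gave a mean of −0.14 ± 0.05 (SD, n = 4), which was the smallest SD of the 7 probes. The level was lower on 4 of 4 arrays, as for 4.58% of all tested probes. The difference was small, with a fold of 0.907 and a 95% interval of 0.843 to 0.975 (limma, SE 0.046, unadjusted p 0.0144), and it was not significant after adjustment (adjusted p 0.378).

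Of 18 other genes that make, bind, degrade or sense retinoic acid, 17 were tested. Only Rxrg, which codes for a retinoid X receptor, had an adjusted p under 0.05, and it rose in Sox2-Tbx2LOF pools with log2 ratios of 0.67, 0.18, 0.63 and 0.31 and a mean of 0.45 ± 0.24 (SD, n = 4, limma adjusted p 0.00348). This was 1.36-fold and thus under the minimum fold of 1.5. SAM did not call Rxrg, and its other probe was at 0.20. By the brightest probe of each gene, 1.12% of all tested genes had an adjusted p under 0.05, with 0.613% lower and 0.504% higher, and 0.273% also reached a fold of 1.5. The lowest ratio was that of Cyp26b1, an enzyme that degrades retinoic acid, with −0.31 ± 0.37 (SD, n = 4, limma adjusted p 0.0607). The median of the 17 genes was −0.01, and 11 of them were below 0.

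Fst codes for follistatin, a secreted protein that binds and neutralises activins and marks the medial side of the cochlear duct. It was the dimmest of the 7 probes in relation to background, at 26.5 to 75.0 times the local background. Levels were 11.15, 11.36, 10.99 and 10.88 in Sox2-Tbx2LOF pools 1 to 4, and 11.03, 11.28, 10.99 and 11.27 in control pools. The male Sox2-Tbx2LOF pool of array 4 was the lowest of all and the female one of array 2 the highest. The log2 ratios of Fst were 0.13, 0.09, −0.005 and −0.39, and the mean was −0.04 ± 0.23 (SD, n = 4). With a 95% interval of −0.22 to 0.13 the limma adjusted p was 0.9996.

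Of 17 other genes of activin and follistatin signalling, 16 were tested and 0 passed at an adjusted p under 0.05 by limma or in SAM, with 2 at an unadjusted p under 0.05. These were Acvr1c, which codes for the type I receptor ALK7 and averaged 0.31 ± 0.12 in log2 ratio (SD, n = 4, limma adjusted p 0.051), and Fstl1, a follistatin-like secreted protein, with −0.18 ± 0.07 (SD, n = 4, limma adjusted p 0.246). They were the extremes of the list. Its median was 0.02.

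**Figure D2:**
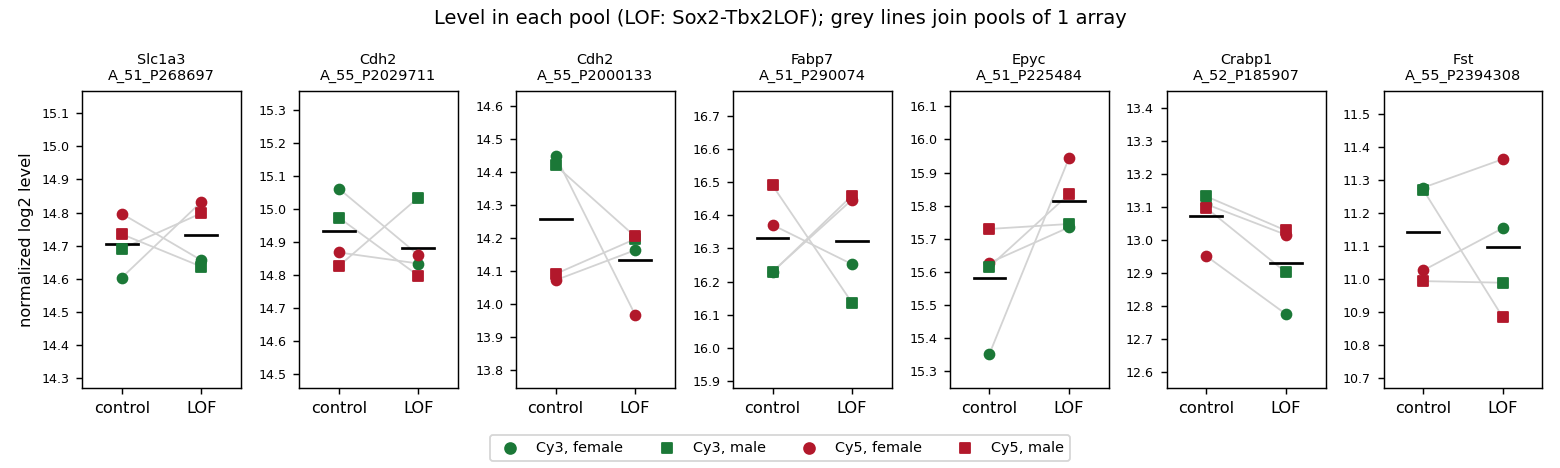
Normalized log2 level (vertical axis, spanning the same width in each panel) of the 7 probes in control and Sox2-Tbx2LOF (LOF) pools, coloured by dye and shaped by sex, with black bars for the means and grey lines between pools of 1 array. Only for Epyc do all Sox2-Tbx2LOF pools lie above all control pools, and for Crabp1 all 4 lines point down.

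The dye moved the ratios of Slc1a3, Cdh2, Fabp7 and Fst by more than their mean difference between genotypes. For 5 of the 7 probes the mean log2 ratio changed sign between arrays with the Sox2-Tbx2LOF pool in Cy3 and arrays with it in Cy5, and for Epyc and Crabp1 it did not. Over all tested probes, 67.8% had such a change of sign. For Fabp7 the mean was −0.24 with Cy3 and 0.22 with Cy5, and for Slc1a3 it was −0.12 and 0.17. For Cdh2 the order was the other way round, with 0.10 and −0.35 at A_55_P2000133 and 0.09 and −0.19 at A_55_P2029711. Epyc kept its sign but also differed by dye, with a mean of 0.06 with Cy3 and 0.41 with Cy5. Crabp1 had −0.19 and −0.10. Without the dye term, the limma adjusted p was 0.9999 for Epyc and 0.971 for Crabp1. The dye coefficient of the fit, which is the shift of the ratio from the average of both orientations, had a size of 0.04 to 0.23 in the 7 probes, and it exceeded the median of all tested probes, 0.07, in 6 of them. Only 4.14% of the tested probes had a larger one than Fabp7. As each sex held both orientations, the dye cancels in the means.

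The effect was also compared between sexes by adding a sex term to the limma fit. No probe on the array had an adjusted p under 0.05 in this comparison (0% of 28079), while 2.01% had an unadjusted p under 0.05. Fst had a mean log2 ratio of 0.11 in female and −0.20 in male pools. The female ratio of Fst minus the male one was 0.30 with a 95% interval of 0.01 to 0.59 (limma unadjusted p 0.0424, adjusted p 0.9999). For Epyc the means were 0.35 in female and 0.12 in male pools, a difference of 0.23 (limma unadjusted p 0.0868, adjusted p 0.9999). Crabp1 had nearly the same ratio in both sexes, −0.13 and −0.15.

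Other genes used as markers of the same cells were set beside these 6. Of 10 further genes of inner supporting cells, all were tested and 2 fell. Otol1, which codes for the matrix protein otolin, had log2 ratios of −0.77, −1.01, −0.59 and −1.07 and a mean of −0.86 ± 0.22 (SD, n = 4, limma adjusted p 1.00e-04). Fgf20, a growth factor gene of the prosensory domain, had a mean of −0.82 ± 0.22 (SD, n = 4, limma adjusted p 0.00171). Both are among the genes that the study names as changed on these arrays, and are no independent evidence of a direction. The other 8 did not pass the test and had ratios between −0.22 for Matn4 and 0.08 for Lfng. Among the 10, 5 had an unadjusted p under 0.05 in limma, as had 1641 of all 21217 tested genes. Ratios below 0 were found for 8 of the 10 and for 10275 of all tested genes. The median of the 10 genes was −0.09, that of the 6 genes −0.03. Whether the 6 genes differ from these 10 was not tested.

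Of 16 further genes of the greater epithelial ridge, 15 were tested, with 3 that rose and 1 that fell. Tectb, which codes for the tectorial membrane protein beta-tectorin and was also named by the study as changed on these arrays, was at 0.69 ± 0.20 (SD, n = 4, limma adjusted p 0.00325), while the other Tectb probe gave 0.62. Ctgf, a secreted matricellular protein, was at 0.38 ± 0.17 (SD, n = 4, limma adjusted p 0.00657). Ano1, a calcium-activated chloride channel of Kölliker's organ, was at 0.39 ± 0.07 (SD, n = 4, limma adjusted p 0.00675). Cpxm2, a carboxypeptidase-like protein, was at −0.49 ± 0.22 (SD, n = 4, limma adjusted p 0.00581). Epyc lay between those 3 and the remaining genes that did not pass, and the median of the 15 was 0.07. An unadjusted p under 0.05 in limma was found for 8 of the 15 and for 1641 of all 21217 tested genes. Ratios were above 0 for 9 of the 15 and for 10942 of all tested genes. Of these 4 genes, only Tectb reached a fold of 1.5 and was called by SAM.

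**Figure D3:**
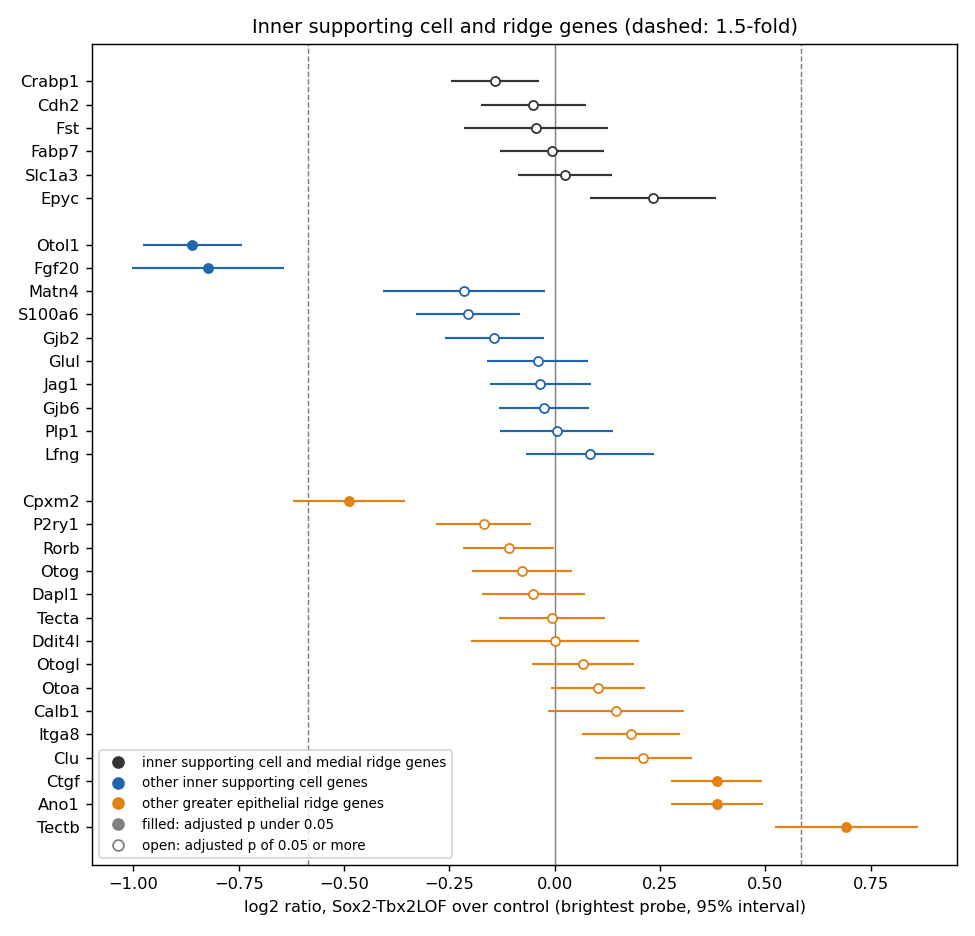
Log2 ratio of Sox2-Tbx2LOF over control (horizontal axis) with its 95% limma interval for the brightest probe of each gene, in the 6 genes (black), other inner supporting cell genes (blue) and other greater epithelial ridge genes (orange), with filled points for an adjusted p under 0.05 and dashed lines at a fold of 1.5. All 6 black intervals lie between the dashed lines, with Epyc to the right of 0 and Crabp1 to the left.

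The correlations of the 6 genes with each other between pools had both signs. For this, the brightest probe of each gene was compared over the 8 pools after the mean of each dye had been subtracted. The 15 pairs had a Pearson r between −0.51 and 0.55. The highest values were found for Cdh2 with Crabp1 (0.55) and for Slc1a3 with Epyc (0.55), the lowest for Cdh2 with Fabp7 (−0.51) and for Epyc with Crabp1 (−0.50). The pools share arrays in pairs, and with 8 points such values describe these pools only.

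The probes most like each gene were searched by the same measure over the 8 pools among all tested probes. For Epyc these were Chrdl1, a secreted BMP antagonist, with r of 0.98, and Pcdh19, a protocadherin, with 0.97. Their mean log2 ratios were 0.21 and 0.22, beside 0.23 for Epyc, and neither passed the test. The measure spans both genotypes, so a probe picked by it tends to have a similar ratio. These ratios are thus no separate evidence. Cdh2 was most like Gpi1, an enzyme of glycolysis (0.97), and Jag1, a Notch ligand of supporting cells (0.97). Slc1a3 came with BB236558 (0.96) and Atp5j (0.95), Fabp7 with Smarce1 and 1110019D14Rik (both 0.99), Crabp1 with 1700110I01Rik and Ppp1r14d (both 0.99), and Fst with Tbp and Snx19 (both 0.97). The number of tested probes with r over 0.9 was 17 for Slc1a3 and for Cdh2 and 23 for Fst. It was 46 for Epyc, 105 for Fabp7 and 106 for Crabp1. These counts are out of 28079 tested probes, compared over only 8 pools. How many unrelated probes would reach such an r in this search was not tested. The named probes are thus only the top of a search, and no evidence of a likeness beyond these pools.

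TBX2 belongs to the T-box factors, whose core binding site is AGGTGTGA. RefSeq promoter windows on GRCm38.p6, from 250 bases before to 50 after the start of a transcript, were at hand for 4 of the 6 genes, with 2 windows for Epyc. None of these 5 windows for Crabp1, Fabp7, Epyc and Slc1a3 held the letters AGGTGTGA on either strand, and 1.28% of 32851 such windows of all genes did.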

How the data were processed

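For every spot, the deposited scanner output of the authors (Agilent Feature Extraction, version 10.7.3.1) gives the intensity in both dyes, linear and not normalized, and a log10 ratio corrected for background and dye by that software. The deposited series matrix gives a signed fold change, for which the steps of the authors are not given in the sources used here. It correlated with the scanner ratios of Sox2-Tbx2LOF over control at r of 0.937 to 0.954, and its median was 1 on each array.

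Here, background was corrected by normexp (offset 50) and ratios by loess within arrays in limma 3.58.1 (R 4.3.3). Controls and outlier-flagged spots (3.23% to 3.56%) did not enter, each probe is the mean of its 4 spots, and all ratios run from control to Sox2-Tbx2LOF. Testing required a probe to be well above background (in more than 0.5 of its spots) on at least 3 arrays in either genotype and measured on all 4, which left 28079 probes. Pool levels are log2 values after quantile normalization of brightness between arrays. Loess assumes that most genes do not change, and the offset pulls dim ratios towards 0. The number of arrays limits the precision. Their slide and scan were shared.

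Differential expression was tested with limma (lmFit, eBayes) and a dye term, and p-values are two-sided. The ratio within an array was preferred to the unpaired SAM of the study. Alternatives were an unpaired SAM, at the lowest delta (1) whose median number of false calls over permutations was 0, other background corrections, scalings, filters, the sex term, unpaired limma, and leaving out each array. A gene was represented by its brightest tested probe, with RefSeq symbols for 28328 probes. The text names every probe of the 6 genes and, per gene, the 2 probes most like it. For each list except the cell type markers, it names genes with an adjusted p under 0.05 and the highest and lowest ratios. Cell type markers were mostly given as counts. Kera, Aspn, Matn4, Pdgfra, Pou3f4, Col3a1, Col1a2 and Twist1 were named after their values were seen. The genes and lists were chosen with earlier results of these data known. Sequences of Cdh2 and the values of a glia marker are not reported here.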

Additional observations from a re-analysis of the deposited data

Results flagged for a closer look

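The log2 ratio of Fst was above 0 on both arrays of female pools and below 0 on both arrays of male pools, with a difference of 0.30 between the means of the sexes. By limma with a sex term this difference had an unadjusted p of 0.0424 and an adjusted p of 0.9999, and 1 of the male values was −0.005. Of 7 probes, Fst was the one with such a split.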

How the results depend on the processing

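The 7 ratios were recomputed under 16 alternatives each. The number of the 7 probes with an adjusted p under 0.05 was 0 throughout, except that it was 1 without array 4, so that it lay between 0 and 1 when arrays were left out, and with the minimum fold of 1.5 it was 0 under every alternative. The Epyc ratio was 0.14 to 0.33 when arrays were left out, and without array 4 it became significant (limma adjusted p 0.0195). Over all its alternatives the limma adjusted p of Epyc ranged from 0.0195 to 0.9999, the latter without the dye term, and its ratio stayed above 0. Ratios near 0 changed sign when 1 array was left out: that of Slc1a3 lay between −0.0059 and 0.055, that of Cdh2 at A_55_P2029711 between −0.11 and 0.0094, that of Fabp7 between −0.065 and 0.053, and that of Fst between −0.16 and 0.074. The arrays were array 2 for Slc1a3, array 1 for Cdh2, array 3 for Fabp7 and array 4 for Fst. With the series matrix Fabp7 was at 0.023. The cause was not tested. The ratios of Crabp1 (−0.16 to −0.13) and of the other Cdh2 probe (−0.19 to −0.06) stayed below 0 and did not pass the test under any alternative. Over all tested probes, 277 had an adjusted p under 0.05, against 443 without array 2, 393 without array 4, 116 without the dye term, 125 by unpaired limma, 84 by SAM and 2 with the series matrix. With the minimum fold there were 70, against 106 without array 1, 124 with the log ratio of the scanner software and 2 with the series matrix. All 7 probes were well above background, and the number of 4 arrays limits what could be detected.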
